A study of Caenorhabditis elegans with 12 samples.

Results

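The 5 flavin-containing monooxygenase genes of *C. elegans* on the array, *fmo-1*, *fmo-2*, *fmo-3*, *fmo-4* and *fmo-5*, were taken by name from 25478 genes that had a probe set carrying exactly 1 gene symbol. Each of the 5 was read by 1 probe set, so none had to be chosen among several. The family was selected on the rise of *fmo-2* under *nuo-5* RNAi. The levels of *fmo-2* are therefore a description without a test, and tests were kept to its 4 paralogues, which the choice did not use.

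Total RNA came from wild-type N2 animals collected at the L3 larval stage and kept at 20 °C, on 12 Affymetrix arrays, in 3 groups of 4 biological replicates each (I, III, IV and V). Control animals were fed bacteria carrying the empty pL4440 vector. Mild animals were fed *nuo-5* dsRNA and collected in the parental generation, whereas strong animals were their progeny on the same RNAi, so that strength and generation cannot be told apart. The plates of the study held lutein or its solvent DMSO, and neither the plate nor the generation of the control animals is given for single arrays. The array version differs between the methods and the sample labels, and the study left out 1 replicate of each group. Values are log2 signals after RMA (background correction, quantile normalization between arrays and 1 value per probe set), so that a difference of 1 is a 2-fold change. The RNAi target *nuo-5*, which encodes a core subunit of respiratory complex I, had a log2 level of 8.43 ± 0.11 (SD, n = 4) in control, 7.40 ± 0.25 in mild and 7.04 ± 0.15 in strong animals. Its strong minus mild difference of −0.37 did not pass (limma adjusted p = 0.118), and the arrays of these groups overlapped. Arrays of 1 group correlated at 0.960 to 0.985, and the median SD between replicates was 0.21 to 0.23 on the log2 scale. In markers of adult animals strong array III stood near the control level, and strong arrays I, IV and V far above it. Strong and control groups thus differed in such markers as well as in RNAi. Where it matters, results in strong animals are also given without strong array III, which leaves arrays with raised adult markers.

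Flavin-containing monooxygenases carry a bound FAD and use NADPH and molecular oxygen to add an oxygen atom to nitrogen or sulfur atoms of drugs, toxins and metabolites. They act beside the cytochromes P450 in the handling of foreign compounds. In *C. elegans*, FMO-2 is known as an intestinal enzyme that is induced through the hypoxia-inducible factor HIF-1, through the TFEB orthologue HLH-30 on dietary restriction, and through the nuclear receptor NHR-49 under oxidative stress. It is needed for the long life of animals under dietary restriction or with an active hypoxic response. FMO-4 acts in the hypodermis in osmoregulation and has been tied to calcium handling between the endoplasmic reticulum and mitochondria. Less is known of FMO-1, FMO-3 and FMO-5.

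*fmo-2* was low in control, intermediate in mild and high in strong animals. On control arrays I, III, IV and V its log2 level was 2.78, 2.94, 2.81 and 3.06. The mild arrays read 4.36, 4.46, 4.89 and 3.92 in the same order. On the strong arrays it was 7.06, 6.86, 6.43 and 6.78. Every mild array lay above every control array and every strong array above every mild array. The same separation of groups, in either direction, was seen in 2.46% of all probe sets between mild and control, 17.9% between strong and control and 14.1% between strong and mild. Nothing is read from this for *fmo-2*, which was chosen by its rise.

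The group means of *fmo-2* were 2.90 ± 0.13, 4.41 ± 0.40 and 6.78 ± 0.26 (SD, n = 4 each). They differed by 1.51 (SE 0.19) between mild and control, a 2.85-fold higher level, by 3.88 between strong and control (14.8-fold) and by 2.37 between strong and mild (5.19-fold). On the log2 scale 38.9% of the strong change was thus already present in mild animals. Only 1 of the 4 control arrays lay above 3.01, the 40th percentile of all values. A level that close to the dim end of the array is poorly resolved, and so are the folds against control. Among the 25478 genes the rise of *fmo-2* had rank 2 between mild and control, rank 23 between strong and control and rank 101 between strong and mild. Its spread within groups was close to that of other genes, with a pooled SD of 0.28 beside a median of 0.25 over all probe sets.

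**Figure D1:**
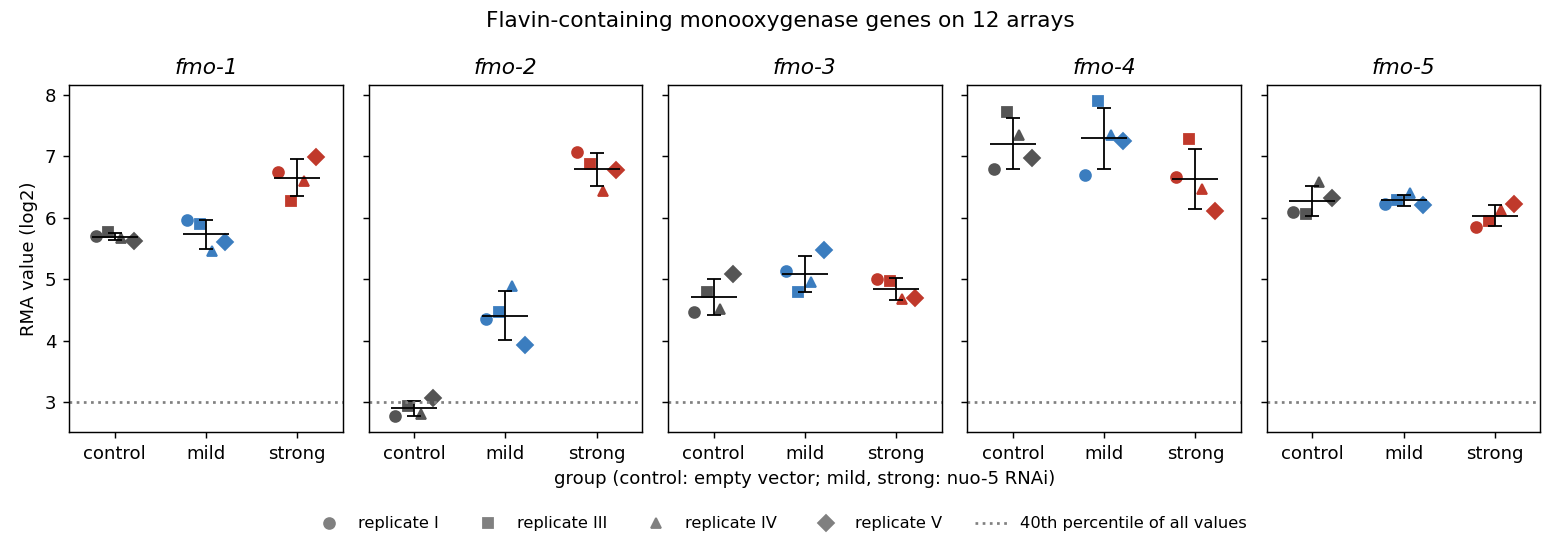
RMA values (log2) of the 5 *fmo* genes on each of the 12 arrays, by group and replicate number, with the group mean (long bar), its SD (short bars) and the 40th percentile of all values (dotted line, 3.01). The *fmo-2* groups are stacked without overlap from 2.78 to 7.06, *fmo-1* stands apart only on the strong arrays, and the groups of *fmo-3*, *fmo-4* and *fmo-5* overlap.

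*fmo-1* rose in strong animals and not detectably in mild ones. Control arrays I, III, IV and V had log2 levels of 5.70, 5.77, 5.67 and 5.62, and the mild arrays 5.96, 5.89, 5.46 and 5.61. The strong arrays had 6.75, 6.27, 6.59 and 6.98. All 4 strong arrays were above the 8 others, whereas mild and control arrays overlapped, with a wider spread in mild animals (SD 0.24) than in control (SD 0.06). Between strong and control the difference was 0.96 (SE 0.16), or 1.94-fold, with a 95% interval of 0.61 to 1.30 and a limma adjusted p of 0.0028. Between strong and mild it was 0.92 (SE 0.16, limma adjusted p = 0.0057). Between mild and control it was 0.04 (SE 0.16, limma adjusted p = 1), with an interval of −0.31 to 0.38.

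In the main fit, which leaves out replicate number, *fmo-1* was the only one of the 4 paralogues that passed the threshold of 0.05. It passed in the comparisons of strong with control and of strong with mild animals. Between mild and control 0 of 4 passed in limma, and 0 had an unadjusted p under 0.05. Over all probe sets, 8.04% were called higher and 5.62% lower between strong and control, 5.82% higher and 4.34% lower between strong and mild, and 0.0136% higher and 0.00341% lower between mild and control. A single call among 4 genes is too few to set against these shares.

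*fmo-3* showed no called difference. Its log2 level was 4.46, 4.79, 4.51 and 5.09 on control arrays I, III, IV and V, 5.13, 4.79, 4.95 and 5.48 on the mild arrays, and 5.00, 4.98, 4.68 and 4.70 on the strong arrays. The 3 groups overlapped, with the highest mean in mild animals. The mild mean exceeded that of control by 0.37 (SE 0.18, limma adjusted p = 1), with an interval of −0.01 to 0.76 that holds both no change and a moderate rise. Strong and control differed by 0.13 (limma adjusted p = 0.699, interval −0.26 to 0.51), and strong and mild by −0.25 (limma adjusted p = 0.444, interval −0.63 to 0.14).

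*fmo-4*, the osmoregulatory member, had the lowest mean in strong animals, but the difference passed only when replicate number was in the fit. On arrays I, III, IV and V the log2 level was 6.79, 7.71, 7.34 and 6.97 in control, 6.69, 7.90, 7.34 and 7.24 in mild and 6.66, 7.27, 6.46 and 6.10 in strong animals. Array III was the highest in all 3 groups, and the groups overlapped. *fmo-4* was the most variable of the 5, with a pooled SD of 0.47 that exceeded the SD of 88.0% of all probe sets. Strong and control differed by −0.58 (SE 0.29, limma adjusted p = 0.226) with an interval of −1.22 to 0.06, and strong and mild by −0.67 (limma adjusted p = 0.185). The mild difference from control was 0.09 (limma adjusted p = 1). With replicate number in the fit (the replicate block), *fmo-4* was called lower in strong animals than in control and in mild ones (limma adjusted p = 0.0449 and 0.033). Relative to the control mean, strong arrays I, III, IV and V stood at −0.55, 0.07, −0.75 and −1.10. The fall was thus absent on strong array III, where adult markers were near control, and the part of stage in it was not tested.

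*fmo-5* varied least, with a pooled SD of 0.18. Control arrays I, III, IV and V had log2 levels of 6.09, 6.05, 6.58 and 6.32, the mild arrays 6.22, 6.28, 6.41 and 6.20, and the strong arrays 5.85, 5.94, 6.12 and 6.22. All 3 groups overlapped. The strong mean was lower than the control mean by a difference of −0.23 (SE 0.14, limma adjusted p = 0.315, interval −0.53 to 0.07) and lower than the mild mean by a like amount (−0.25, limma adjusted p = 0.312). Mild and control differed by 0.02 (limma adjusted p = 1, interval −0.28 to 0.31).

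**Figure D2:**
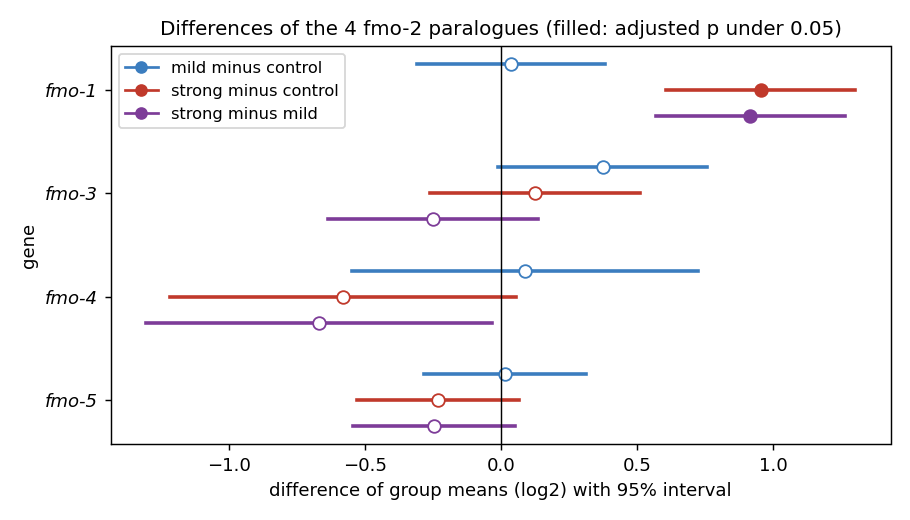
Difference of group means (log2, x axis) of *fmo-1*, *fmo-3*, *fmo-4* and *fmo-5* with its 95% interval, for mild minus control, strong minus control and strong minus mild, filled where the limma adjusted p was under 0.05. Only the strong comparisons of *fmo-1* are filled, at 0.96 and 0.92.

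Set beside its paralogues on the same arrays, each gene taken relative to its own control mean, *fmo-2* changed more than each of them on 4 of 4 mild and 4 of 4 strong arrays. In mild animals the excess averaged 1.47 over *fmo-1*, 1.13 over *fmo-3*, 1.42 over *fmo-4* and 1.49 over *fmo-5* on the log2 scale. It was 2.93, 3.76, 4.46 and 4.11 in strong animals. The narrowest margin on a single array, 0.26, was over *fmo-3* in mild animals, and the narrowest over *fmo-1* in strong animals was 2.59. These margins describe a gene that was picked for its rise and carry no test.

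The array profile of *fmo-2* was also compared with that of all other genes, by the root mean square difference over the 8 RNAi arrays after subtracting each gene's own control mean. No paralogue was among the 8 nearest genes. *fmo-1*, the nearest of the 4, lay at 2.35 with 1302 genes nearer, *fmo-3* at 2.81 with 6005 nearer, *fmo-5* at 3.11 with 18066 nearer and *fmo-4* at 3.34 with 23320 nearer, where the median over all genes was 2.997.

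The 8 nearest genes were T16G1.4 (0.44), *cyp-33C8* (0.45), T16G1.6 (0.46), *cyp-14A4* (0.56), B0205.14 (0.59), R08F11.4 (0.64), *cyp-13A8* (0.72) and F22B3.7 (0.73). Of these, *cyp-33C8*, *cyp-14A4* and *cyp-13A8* encode cytochromes P450, the other large family of oxygenases of foreign compounds. All 8 were taken for their likeness to *fmo-2*, so their changes are a description too. Their strong minus control differences ran from 3.37 for T16G1.6 to 4.74 for F22B3.7, around the 3.88 of *fmo-2*. Like *fmo-2*, F22B3.7 lay at the dim end of the array in control (2.42 to 3.10), and T16G1.4 reached it there (2.46 to 4.19), so their differences are poorly resolved. Their mild minus control differences ran from 0.82 for R08F11.4 to 1.72 for *cyp-33C8*, and only the latter exceeded the 1.51 of *fmo-2*. The mild change was 20.1% to 43.8% of the strong one, against 38.9% for *fmo-2*. Strong arrays lay apart from control and from mild arrays for 8 of 8 genes, which their choice by likeness to *fmo-2* made likely. Mild arrays lay apart from control for 3 of 8, *cyp-33C8*, T16G1.6 and B0205.14. Over all probe sets the groups lay apart in 17.9% (strong and control), 14.1% (strong and mild) and 2.46% (mild and control). Nothing is read from these counts. Mild array V, the lowest mild array of *fmo-2*, was also the lowest mild array of each of the 8, which their choice over these same arrays favoured.

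**Figure D3:**
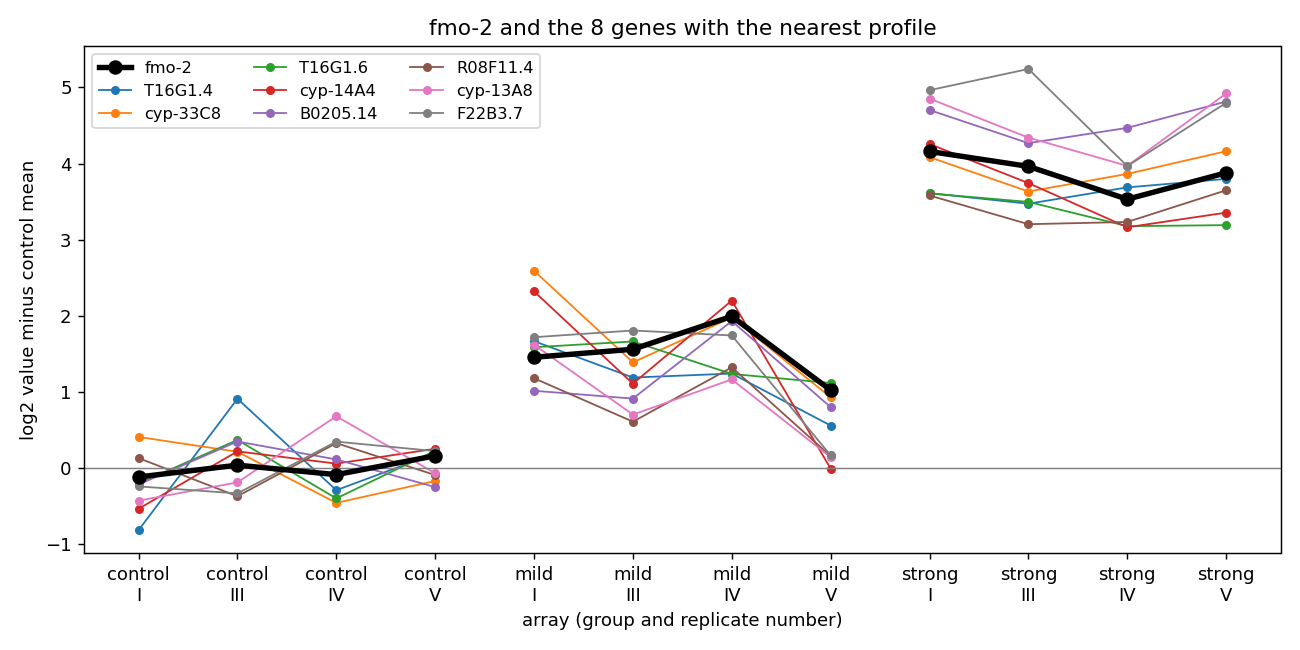
Log2 value minus the gene's own control mean (y axis) on each of the 12 arrays for *fmo-2* (thick black line) and the 8 genes with the nearest profile. The lines run between −0.81 and 0.91 in control, between −0.01 and 2.59 in mild and between 3.16 and 5.24 in strong animals.

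Tissue and stage markers were read on the same arrays, because *fmo-2* is an intestinal gene and whole larvae were used. In such a sample, fewer cells of a type and less RNA per cell cannot be told apart. Of 6 intestinal markers, 1 rose between strong and control, where 8.04% of all probe sets were called higher. It was the GATA factor gene *elt-2* (1.57, limma adjusted p = 0.00215), from log2 levels of 6.57 to 7.62 on control arrays to 8.41 to 9.22 on strong arrays. All 6 lay above 3.01 on every array. The mean log2 level of the list ranged over 7.77 to 8.50 on control, 7.92 to 8.63 on mild and 8.74 to 8.91 on strong arrays. Strong arrays stood above the others in this mean, to which *elt-2* added most. Between strong and control *elt-7*, *ges-1* and *ifb-2* differed by 0.59, 0.64 and 0.43. *pept-1* and *act-5* differed by 0.15 and 0.06, and none of these genes besides *elt-2* passed. The mean of the list moved with *fmo-1* and *fmo-2* between strong and control, by less than *fmo-2* did, and its part in those results was not tested.

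Markers of the adult cuticle, yolk and oocytes also moved. Of 10 such genes measured, 8 rose in strong animals and 0 of 10 passed between mild and control, where none had an unadjusted p under 0.05 in limma either. Over all probe sets, 8.04% were called higher between strong and control and 0.0136% between mild and control. The lack of calls in mild animals thus says little about these genes. The mean log2 level of these 10 was 3.81 to 4.25 on control and 3.79 to 4.12 on mild arrays. It read 7.88, 4.27, 9.18 and 7.20 on the strong arrays in the order I, III, IV, V. Strong array III thus lay just above the control range. Most of the 10 lay above their own control range there, such as *vit-5* (3.73, control 2.38 to 2.78), and *vit-1* lay below (3.05). The adult collagen gene *col-119*, for instance, had 2.41 to 2.82 in control and 9.66, 3.14, 9.13 and 8.09 on the strong arrays. On strong array III *fmo-2* still read 6.86, close to the other strong arrays. *fmo-1* had its lowest strong value there, 6.27, which was above every control and mild array. Without strong array III the strong minus control difference was 3.86 for *fmo-2* and 1.08 for *fmo-1* (limma adjusted p = 0.000687). The part of stage in these results was not tested.

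**Figure D4:**
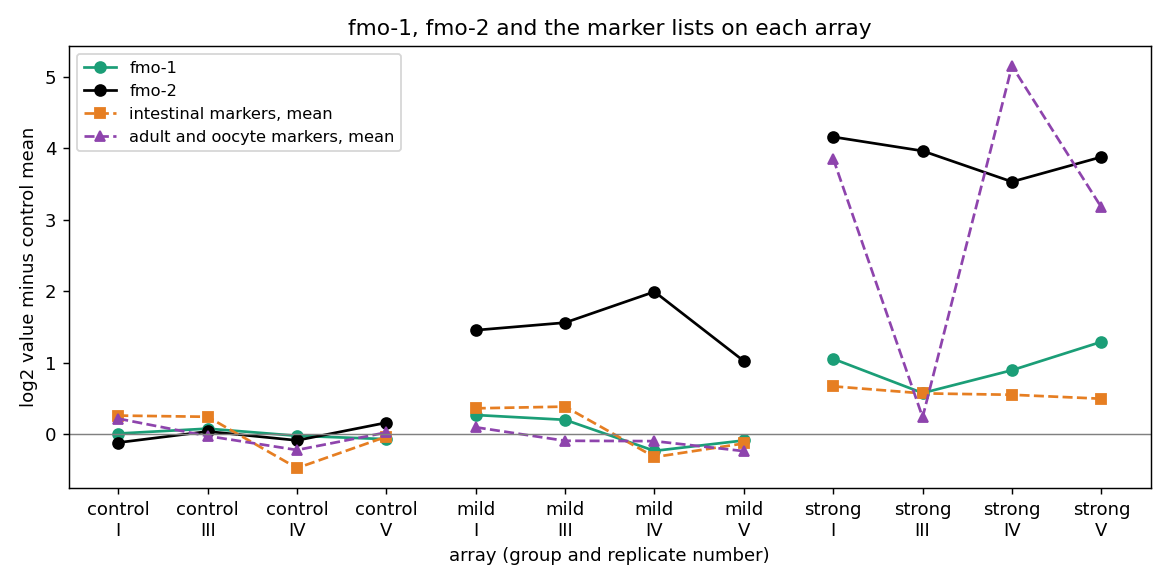
Log2 value minus the control mean (y axis) on each of the 12 arrays for *fmo-1*, *fmo-2*, the mean of 6 intestinal markers and the mean of 10 adult and oocyte markers. The mean of the adult markers falls back to just above the control range on strong array III, where *fmo-2* stays high.

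Genes that act upstream of *fmo-2*, share its regulators or belong to pathways tied to it were read from 6 lists, with 50 members measured. Between mild and control 0 of 50 passed the limma test and 1 had an unadjusted p under 0.05, *aha-1*. Over all probe sets 0.0136% were called higher and 0.00341% lower in that comparison, so the lack of calls says little about these genes. Between strong and control 14 were higher and 6 lower, in a comparison where 8.04% of all probe sets were called higher and 5.62% lower. Each median below stands beside a median of −0.05 over all probe sets in that comparison.

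Of 9 listed regulators of *fmo-2* and of HIF-1, 7 were measured, and *hif-1* itself was not among the 7. Of the 7 measured, 3 rose in strong animals and 0 fell (median 0.67). *hlh-30*, the gene of the TFEB orthologue that induces *fmo-2* in fasting, differed by 0.83 (limma adjusted p = 0.00297). *mdt-15*, a Mediator subunit that works with NHR-49, differed by 0.73 (limma adjusted p = 0.00343) and *aha-1*, the partner of HIF-1 in DNA binding, by 0.67 (limma adjusted p = 0.00641). *nhr-49* itself did not pass, with a difference of 0.40 (limma adjusted p = 0.0995). The transcript level of a factor does not measure its activity.

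Further members of the hypoxia and sulfide response moved mostly upward, with 5 of 8 higher and 1 lower (median 0.95). The nuclear receptor gene *nhr-57*, a HIF-1 target, rose by 2.14 and *sqrd-1*, which encodes the sulfide quinone oxidoreductase, by 1.21. *cyp-36A1*, another P450 gene, rose by 1.59, a call that was lost without control array I, III or V or strong array IV or V (limma adjusted p = 0.0556 to 0.0768). On strong array III *cyp-36A1* read 4.58, close to its highest control value of 4.52. Strong arrays I, IV and V had 5.80, 6.52 and 6.81. The number higher was 3 without control array I, control array V or strong array IV. *phy-2*, which encodes a collagen prolyl hydroxylase, fell by 1.53. All of these genes were below *fmo-2* in size of change.

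Among 6 other targets of NHR-49, 1 rose and 1 fell (median 0.35). The acyl-CoA synthetase gene *acs-2* rose by 1.40, which did not pass when control array I, control array V, strong array I or strong array IV was left out (limma adjusted p = 0.0552 to 0.0775). The desaturase gene *fat-7* fell by 4.63. Of 11 other HLH-30 targets, 3 rose and 0 fell (median 0.49), namely the autophagy genes *sqst-1* (2.25), *lgg-2* (1.11) and *atg-18* (0.83). The remaining 8, which include the lipase genes *lipl-1*, *lipl-2*, *lipl-3* and *lipl-5*, did not pass. On strong array III *lgg-2* read 9.93, level with its highest control value (9.93). Without that array, 5 of the 11 were higher.

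Tryptophan and one-carbon metabolism have been linked to FMO-2. Of 11 of their enzymes measured, 4 fell, 0 rose and 7 did not pass (median −0.46), and of the tryptophan enzymes only *haao-1* was called. These were *sams-1*, the S-adenosylmethionine synthetase (−1.57), *metr-1*, the methionine synthase (−1.52), *haao-1* of the kynurenine pathway (−1.43) and *mthf-1*, the methylenetetrahydrofolate reductase (−1.23). For all 4, every strong array lay below every control array, but they were named because they passed in this comparison. Strong and control arrays lay apart, in either direction, in 17.9% of all probe sets. Among 7 genes of endoplasmic reticulum and mitochondrial calcium handling, chosen for FMO-4, 2 rose and 0 fell (median 0.08). The inositol trisphosphate receptor gene *itr-1* differed by 0.81 (limma adjusted p = 0.016). *atf-6*, a sensor of endoplasmic reticulum stress, differed by 0.63 (limma adjusted p = 0.031), and this call was lost without control array III, IV or V or strong array III, IV or V (limma adjusted p = 0.0516 to 0.0837). Without strong array III, 1 of the 7 was higher and 1 lower.

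**Figure D5:**
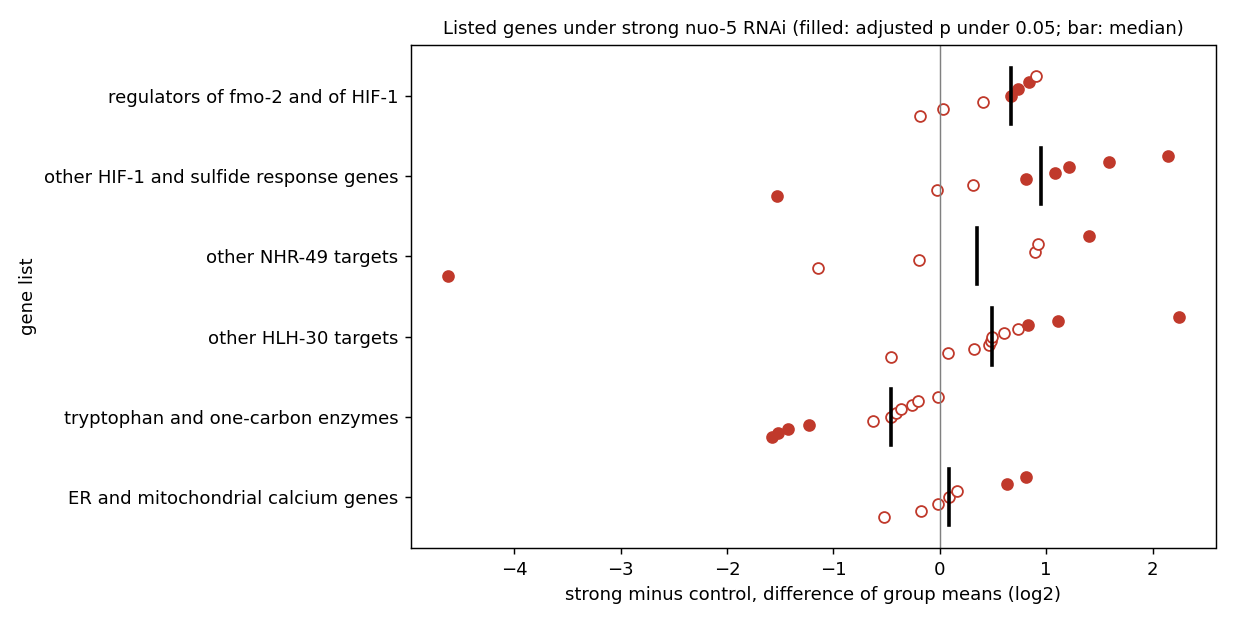
Strong minus control difference (log2, x axis) of each measured member of 6 gene lists (y axis), filled where the limma adjusted p was under 0.05, with the list's median as a bar. The medians run from −0.46 for the tryptophan and one-carbon enzymes to 0.95 for the other HIF-1 and sulfide response genes.

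*fmo-1* and *fmo-2* lie close together in the genome, with 3 protein-coding genes between them in the WBcel235 gene table. None of these 3 was called higher. Between strong and control the difference was −0.05 for K08C7.7 (limma adjusted p = 0.908), 0.28 for K08C7.4 (limma adjusted p = 0.351) and −0.76 for *epi-1*, a laminin alpha chain gene (limma adjusted p = 0.0219). Outside the pair, on the side of *fmo-1*, *glb-19*, a globin gene, rose by 0.73 (limma adjusted p = 0.0378) and K08C7.1 differed by −0.23. On the side of *fmo-2*, K08C7.6 differed by −0.27 and R102.1 by 0.54 (limma adjusted p = 0.118). The call of *glb-19* was lost without control array I, III or V, mild array IV or strong array I, IV or V (limma adjusted p = 0.0504 to 0.0949). That of *epi-1* was lost without control array I, III or V or strong array IV (limma adjusted p = 0.0518 to 0.0623), and R102.1 passed without control array IV (limma adjusted p = 0.0327). Other fits also changed the calls of *glb-19*, *epi-1* and R102.1. Over the nearest protein-coding genes of all 5 *fmo* genes, 18 in number, 2 were higher and 3 lower between strong and control (8.04% and 5.62% of all probe sets), and nothing is read from counts of this size. Among them 0 of 18 passed between mild and control, where 0 had an unadjusted p under 0.05 in limma. Over all probe sets 0.0136% were called higher and 0.00341% lower in that comparison, so nothing is read from this count either. Probe sequences were not used here, so binding of 1 *fmo* transcript to the probes of another was not examined.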

How the data were processed

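The 12 arrays, of whole L3 larvae, fall into 3 groups of 4 by their sample labels. The deposited values are log2 signals that the authors obtained by RMA (oligo package), with no filter on dim probe sets stated. The table of 29317 probe sets with 0 missing values was used as deposited, and 0 columns were left unmapped. Symbols came from the platform annotation, of which 25495 entries were matched by gene identifier to the WBcel235 gene table, here used only for names and neighbours. A gene was represented by the probe set with the highest mean over all arrays among those with exactly 1 symbol.

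Group means were compared in R 4.3.3 with limma 3.58.1, as 1 fit over 12 arrays (9 residual and 3.51 prior degrees of freedom), adjusting p values over all probe sets by Benjamini-Hochberg (threshold 0.05). The fit was tested on simulated data. All adjusted p values are from limma. Intervals are at 95% and measure only the spread between these arrays, whose number limits the precision. No set test was run, and no sequence was available to be printed.

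The family, the gene lists and the tests were chosen with earlier results of these data known. Named genes were the 5 *fmo* genes, *nuo-5*, the 8 genes nearest to *fmo-2* in profile, up to 4 listed genes of each list that passed between strong and control and changed most, and the 2 nearest protein-coding genes on each side of *fmo-1* and *fmo-2*. Members named for not passing were chosen after their values were seen. Of 69 listed genes, 66 were measured and 3 were not analysed here.

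Replicate numbers recur in the 3 groups. Deviations of same-numbered mild and control arrays from their group means correlated at 0.34, 0.25, 0.27 and 0.20, so that these numbers pair the arrays. The fit above has no block, and all printed values come from it unless the replicate block is named. The replicate block changed no call between mild and control for the paralogues or lists. Same-numbered strong and control arrays gave 0.31, 6.78e-05, 0.08 and 0.12, and strong and mild arrays 0.23, 0.12, 0.04 and 0.04. Only number I reached the range of the mild and control pairs. These values do not settle whether the strong arrays are paired with the others. Alternatives were the replicate block, a fit without the third group (8 arrays), a filter on dim probe sets (above 3.01, the 40th percentile, on at least 4 arrays), a further quantile normalization, median centring of each array, an intensity trend with robust estimation, array weights and leaving out each array. Figures were drawn with matplotlib 3.10.9.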

Additional observations from a re-analysis of the deposited data

Results flagged for a closer look

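Among 120 groups of 4 arrays examined for the genes named above, 4 held an array far from the other 3, where chance gives about 1 in 20. None was a group of an *fmo* gene. F22B3.7, 1 of the 8 genes near *fmo-2* in profile, had a log2 level of 2.92 on mild array V and 4.48 to 4.56 on the other mild arrays. *haao-1* of the kynurenine pathway had 7.54 on mild array III and 7.88 to 7.92 on the others. Of the neighbours of *fmo-2*, K08C7.6 had 6.82 on strong array III against 6.62 to 6.64, and R102.1 had 4.48 on control array IV against 3.70 to 3.77.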

How the results depend on the processing

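Over 19 alternatives, the differences of *fmo-2* ranged from 1.35 to 1.67 (mild minus control), 3.73 to 4.00 (strong minus control) and 2.21 to 2.54 (strong minus mild). *fmo-1* passed between strong and control (0.84 to 1.08, limma adjusted p = 0.000687 to 0.0115) and between strong and mild (0.80 to 1.04, limma adjusted p = 0.00107 to 0.0291) in all of them. With the replicate block, 1 paralogue was called lower between strong and control and 1 between strong and mild, in both cases *fmo-4* (limma adjusted p = 0.0449 and 0.033). The block changed no other call of a paralogue. Its same-numbered strong minus control differences were −0.14, −0.44, −0.88 and −0.86. Quantile normalization again turned the sign of the uncalled differences of *fmo-1* and *fmo-5* between mild and control and of *fmo-3* between strong and control (−0.06).

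Between strong and control, the number of NHR-49 targets called higher was 2 with the replicate block, quantile normalization again, the filter on dim probe sets, the intensity trend and array weights. With 1 array left out it was 0 to 2, with 0 without control I, control V, strong I or strong IV and 2 without control IV or mild IV. HLH-30 targets called higher were 5 with the replicate block, 7 with array weights and 3 to 5 with 1 array left out (5 without strong III). HIF-1 and sulfide response genes called higher were 4 to 5 over the settings that leave out no single array. They were 3 to 5 with 1 array left out, with 3 without control I, control V or strong IV. Regulators called higher were 3 to 4, both over those settings and with 1 array left out. Tryptophan and one-carbon enzymes called lower were 4 to 6 over those settings and 4 to 5 with 1 array left out. Of the calcium genes, 1 was higher with centring on medians, 1 was lower with the filter on dim probe sets and with array weights, and with 1 array left out 1 to 2 were higher (1 without control III, IV or V or strong III, IV or V) and 0 to 1 lower (1 without strong III). Of the neighbours, *glb-19* also lost its call with the replicate block, the fit of 8 arrays and quantile normalization again (limma adjusted p = 0.0528, 0.0665 and 0.0662) and *epi-1* with the fit of 8 arrays (0.0579), and R102.1 passed with the replicate block and array weights (0.0428 and 0.0219). *atf-6* lost its call with centring on medians (0.0579). No list gained a call between mild and control. Averaging several probe sets per gene could change nothing, as 0 members or listed genes had more than 1. The cause of these changes was not tested. Signal over background limits the folds of *fmo-2* against control.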
